A study of Caenorhabditis elegans with 24 samples.

Results

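Histone genes of Caenorhabditis elegans were followed in 4-cell embryos whose ancestors had been kept at 25 °C or at 20 °C. The genes were taken by identifier, as every gene probe with a WormBase number from WBGene00001875 to WBGene00001946, the block given in order to his-1 through his-72. The block spans 72 identifiers, and 12 of the 15208 gene probes on the array carry one of them. They are the H4 genes his-1, his-5, his-26, his-38 and his-67, the H3 genes his-25 and his-42, the H2A gene his-7, the H2B gene his-41, the H1 linker histone gene his-24, the H3 variant gene his-70, and his-36, for which no histone type is given here. The array files hold identifiers and no symbols, so each name follows from the order of the identifiers, and the type of each gene is background knowledge.

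Each of 24 samples was RNA of 50 embryos, and each of 8 groups had 3 separately collected samples. Generation 2 held embryos of mothers grown at 25 °C and embryos of mothers grown at 20 °C, with grandparents at 20 °C in both cases. Generation 3 held embryos whose grandparents had been at 25 °C and whose mothers were back at 20 °C, against embryos with both at 20 °C. Each of these 4 conditions was sampled in strain HC445, with the genotype sid-1(qt9) and a suspected loss of haf-6, and in N2, the wild-type laboratory strain. SID-1 is a double-stranded RNA channel needed for systemic RNA interference. All worms were fed a sporulation-defective Bacillus subtilis strain and had been cultured at 20 °C beforehand.

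Core histones H2A, H2B, H3 and H4 form the protein spool of the nucleosome, and H1 binds the DNA between nucleosomes. Core histone genes are present in many near-identical copies, mostly in clusters, and their mRNAs usually end in a stem-loop in place of a poly(A) tail, whereas mRNAs of replacement variants and of many linker histones are polyadenylated. An early embryo divides rapidly and draws largely on histone mRNA and protein supplied by the mother. The RNA here was reverse transcribed from an oligo-dT primer and amplified by in vitro transcription, so a core histone probe reports the RNA that such a primer copied. Probes of near-identical copies may also bind each other's RNA, and the signal of a probe cannot be assigned to 1 copy.

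Signal is given as log2 of the processed intensity minus log2 of the array's 75th percentile, so 0 is the brightness of the 75th percentile probe. Levels are compared within a probe only. The 75th percentile itself lay between 30282 and 45402 intensity units, and 9109 to 13075 probes were well above background on an array. Of the 12 histone probes, 11 were well above background on all 24 arrays, and none was saturated or set aside as an uneven spot. The exception was his-70. Fewer embryos contributing RNA and less RNA per embryo cannot be told apart in such samples. The stage could not be checked with marker genes, since the files do not pair probes with gene symbols.

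Arrays with the same replicate number were scanned on the same day, and each of the 3 days held all 8 groups. The arrays lay on 14 slides, and 1 slide held all 4 replicate 3 arrays with ancestors at 25 °C and no array with ancestors at 20 °C. Replicate 3 of N2 with mothers at 20 °C stood apart. It gave the highest of the 24 values for 9 of the 11 histone probes. Their median was 1.17 above the other 2 arrays of its group on the log2 scale, against 0.35 over all probes. Where leaving it out moved an estimate of the mother's temperature or of strain by over 1.5 times, or ended a call, both values are given.

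The question of the first comparison was whether the mother's temperature was followed by a difference in the embryo. Among 11 tested histone probes, his-67 and his-36 fell and his-41 rose in embryos of 25 °C mothers relative to embryos of 20 °C mothers, over both strains (limma, Benjamini-Hochberg adjusted p under 0.05 over 11637 probes). These 3 are 27.3% of the histone probes, beside 14% of all probes called in this comparison. By direction, 5.45% of all probes were called higher and 8.52% lower. That balance depended on the scaling, and after quantile normalization more probes were called higher than lower. With 11 probes, some of which share sequence, these shares were not compared by a test. The median log2 fold change was -0.15 over the histone probes and -0.07 over all probes. Leaving out the N2 array that stood apart, the middle one of the 11 histone estimates was -0.07, that of his-26.

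**Figure D1:**
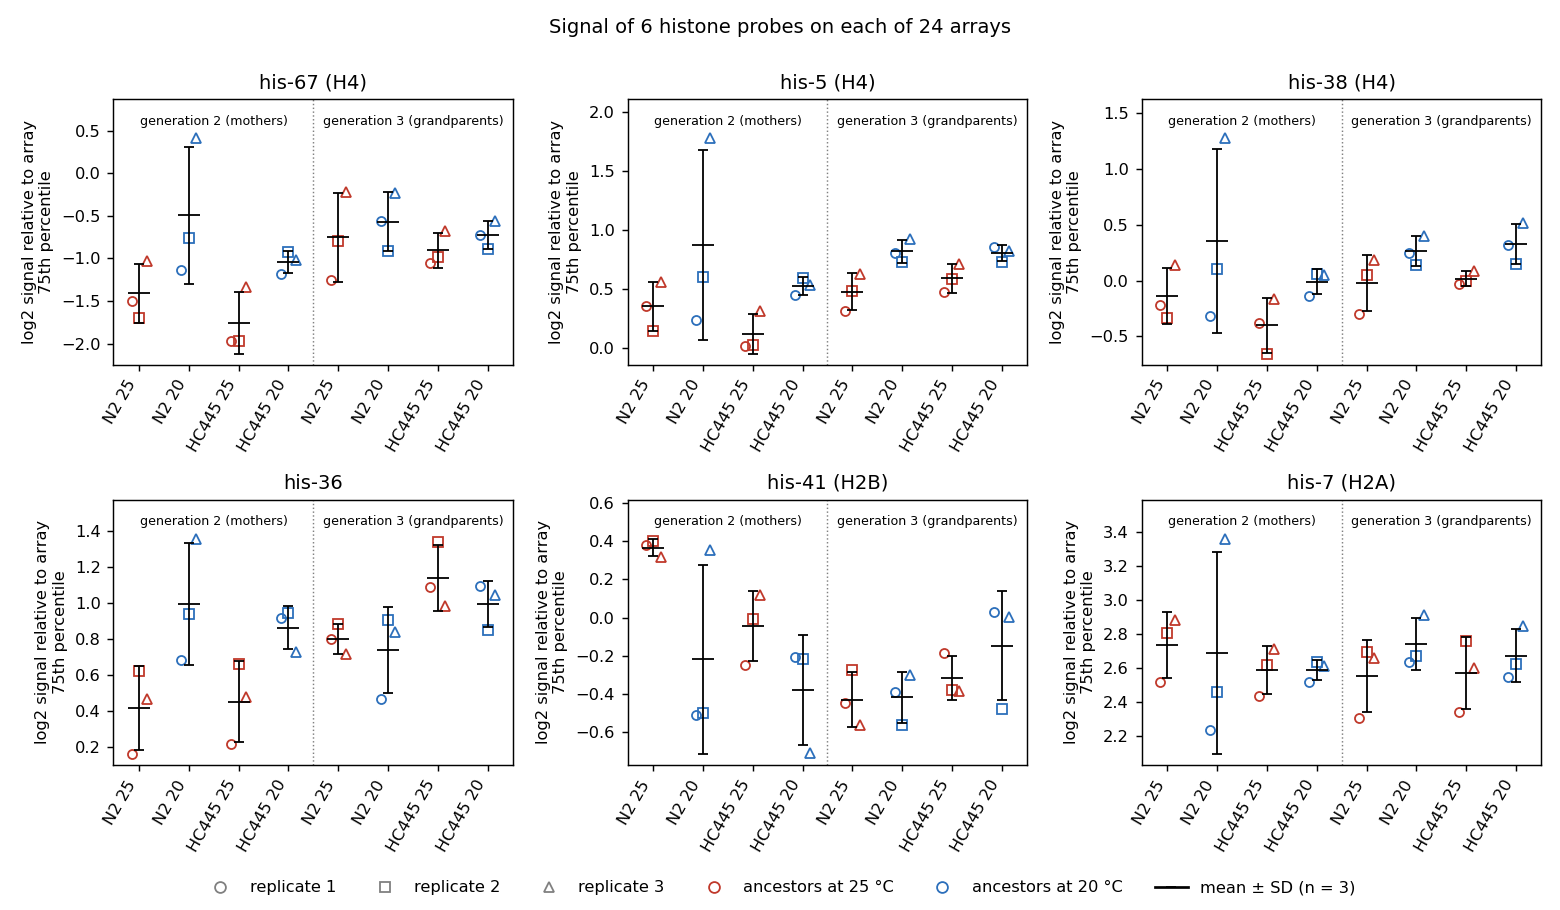
Signal of 6 histone probes on each of the 24 arrays, as log2 relative to the array's 75th percentile (vertical axes), by strain and ancestors' temperature (horizontal axes). Symbols are replicates, red is 25 °C and blue 20 °C, and bars are mean ± SD (n = 3). The his-36 values with mothers at 25 °C lie below those with mothers at 20 °C, and the replicate 3 array of N2 with mothers at 20 °C is high in all 6 panels.

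H4 is the core histone that pairs with H3, and its genes are represented by 5 probes. The H4 gene his-67 (WBGene00001941, chromosome I, next to his-68) had -1.97, -1.97 and -1.34 in HC445 embryos of 25 °C mothers, against -1.18, -0.93 and -1.02 in HC445 embryos of 20 °C mothers. It had -1.50, -1.71 and -1.03 in N2 embryos of 25 °C mothers, against -1.14, -0.76 and 0.41 in N2 embryos of 20 °C mothers. In HC445 all 25 °C values were below all 20 °C values, as was also so for his-5, his-36 and his-38. The share of all probes that separate in this way within HC445 was not counted. In N2 the his-67 groups overlapped. Over both strains the log2 fold change was -0.81 (SE 0.22, 95% interval -1.26 to -0.36, limma adjusted p = 0.0136), which is 1.76-fold lower. The 25 °C array was the lower one in each of the 6 pairs scanned on the same day, and the means by day were -0.57, -0.99 and -0.88 for replicates 1, 2 and 3. How many of all probes had 6 such pairs was not counted. Without the N2 array that stood apart, the estimate was -0.59 with an adjusted p of 0.0343. With slide as a fixed block it was -0.36 and the call was lost (limma adjusted p = 0.517). In that fit the calls of his-36 (-0.34, adjusted p = 0.359) and his-41 (0.99, adjusted p = 0.0746) were lost too, although the his-41 estimate was larger than without the block.

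The other 4 H4 probes did not pass the test. The H4 gene his-5 (WBGene00001879, in the cluster on chromosome V that also holds his-7) had a lowest, median and highest value of 0.02, 0.23 and 0.56 with mothers at 25 °C, against 0.24, 0.57 and 1.78 with mothers at 20 °C (n = 6 each). The H4 gene his-38 (WBGene00001912, chromosome X, next to his-40) had -0.66, -0.28 and 0.14 with mothers at 25 °C, against -0.32, 0.06 and 1.27 with mothers at 20 °C. The groups overlapped for both probes, and the highest value of each was that of the N2 array that stood apart. The log2 fold change of his-5 was -0.46 (95% interval -0.81 to -0.12, limma adjusted p = 0.0675), and that of his-38 was -0.44 (95% interval -0.82 to -0.06, limma adjusted p = 0.114). Without that array they were -0.24 and -0.21, with adjusted p of 0.128 and 0.303.

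With scan day as a replicate block, his-5 and his-38 passed the threshold at the same estimates, with limma adjusted p of 0.0199 and 0.0301. The block brought the histone probes called from 3 to 5 of 11, and all probes called from 1626 to 2666 of 11637. Within days the estimates of his-5 were -0.16, -0.51 and -0.72 for replicates 1, 2 and 3, and those of his-38 were -0.07, -0.58 and -0.67. The smallest difference of each was on the replicate 1 day, and the largest on the day that held the array standing apart. Between the N2 arrays of generation 2 that shared a slide, both of replicate 1, the difference was 0.11 for his-5 and 0.10 for his-38, above 0 in both cases.

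The estimates of his-1 and his-26 were smaller. The H4 gene his-1 (WBGene00001875, chromosome V, beside his-2 and his-3) had a log2 fold change of -0.21 (95% interval -0.59 to 0.17), and his-26 (WBGene00001900, chromosome II, beside his-25) had -0.15 (95% interval -0.57 to 0.28). Without the N2 array that stood apart they were -0.08 and -0.07. All 5 H4 estimates were thus below 0, as were 57.9% of the estimates over all probes. With slide as a fixed block, those of his-1 (0.05), his-26 (0.26) and his-38 (0.01) were above 0. Since H4 copies can bind each other's RNA and were measured on the same arrays, the 5 are not independent.

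**Figure D2:**
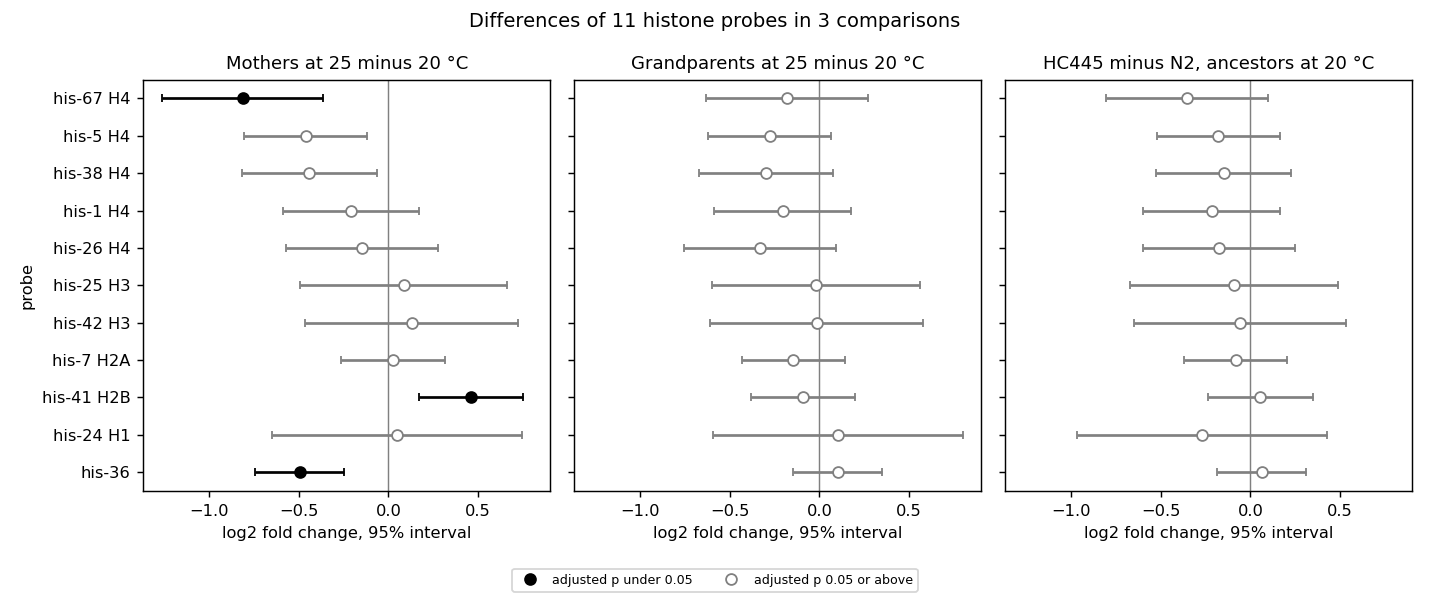
Log2 fold changes of 11 histone probes (horizontal axes) with 95% intervals for mothers at 25 minus 20 °C, grandparents at 25 minus 20 °C, and HC445 minus N2 with ancestors at 20 °C. Filled points passed the threshold of 0.05 on the adjusted p: his-67, his-41 and his-36 in the first panel, and no probe in the other panels.

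The probe of his-36 (WBGene00001910) had the smallest adjusted p of the histone probes. It had 0.22, 0.66 and 0.48 in HC445 embryos of 25 °C mothers, against 0.92, 0.95 and 0.73 in HC445 embryos of 20 °C mothers. It had 0.16, 0.62 and 0.47 in N2 embryos of 25 °C mothers, against 0.69, 0.94 and 1.36 in N2 embryos of 20 °C mothers. Every 25 °C value was below every 20 °C value across both strains. Such a separation of 6 from 6 arrays was found for 7.42% of all probes, and for no other histone probe. Its log2 fold change was -0.49 (SE 0.12, 95% interval -0.74 to -0.25, limma adjusted p = 0.00650), which is 1.41-fold lower. By day it was -0.61, -0.30 and -0.57 for replicates 1, 2 and 3, and without the N2 array that stood apart it was -0.40 (adjusted p = 0.0193). One slide carried N2 arrays of both temperatures in generation 2, and there the difference was -0.52. The call was lost without the replicate 3 day (-0.46, limma adjusted p = 0.0778). Without the 6 arrays that have a spike-in note the estimate was -0.38. The 5 noted arrays all had ancestors at 25 °C, and the 1 suspected array had mothers at 20 °C. Leaving them out kept only 1 N2 array with mothers at 25 °C, so that fit was read for its estimate only.

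The H2B gene his-41 (WBGene00001915, chromosome V, next to his-35) went the other way. H2B pairs with H2A in the nucleosome. The probe had -0.25, -0.01 and 0.12 in HC445 embryos of 25 °C mothers, against -0.21, -0.22 and -0.71 in HC445 embryos of 20 °C mothers. It had 0.38, 0.40 and 0.31 in N2 embryos of 25 °C mothers, against -0.51, -0.50 and 0.35 in N2 embryos of 20 °C mothers. The groups overlapped in both strains, in N2 through the array that stood apart. For his-41 this gave a log2 fold change of 0.46 (SE 0.14, 95% interval 0.17 to 0.75, limma adjusted p = 0.0305), which is 1.37-fold higher.

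The 25 °C array was the higher one for his-41 in 4 of the 6 same-day pairs, and the means by day were 0.43, 0.56 and 0.39 for replicates 1, 2 and 3. Without the array that stood apart the estimate was 0.60 (limma adjusted p = 0.00110). The call was lost on leaving out any 1 of 7 other generation 2 arrays, listed with the processing alternatives, with adjusted p between 0.0558 and 0.0936. It was also lost without the slide of the replicate 3 arrays with ancestors at 25 °C (0.43, adjusted p = 0.117). Without the arrays that have a spike-in note, which kept only 1 N2 array with mothers at 25 °C, the estimate was 0.48.

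The remaining probes did not pass the test, and their intervals lay on both sides of 0. The H2A gene his-7 (WBGene00001881) had a log2 fold change of 0.02 (95% interval -0.27 to 0.31). The H3 genes his-25 (WBGene00001899) and his-42 (WBGene00001916), both in the chromosome II cluster, had 0.08 (95% interval -0.49 to 0.66) and 0.13 (95% interval -0.46 to 0.72). The linker histone gene his-24 (WBGene00001898, chromosome X) had 0.05 (95% interval -0.65 to 0.75). Without the N2 array that stood apart, the estimates were 0.19 for his-7, 0.28 for his-25, 0.32 for his-42 and 0.29 for his-24, and again none was called (limma adjusted p from 0.240 to 0.625).

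Taken by strain, 0 of 11 histone probes were called in HC445 (2 at an unadjusted p under 0.05), beside 5.08% of all probes. In N2, 1 was called, his-36, beside 5.47% of all probes. With scan day as a replicate block, his-67 was called in HC445 (limma adjusted p = 0.0334). In N2, his-67 (adjusted p = 0.00621) and his-36 (adjusted p = 0.0136) were called with the block. Of all 11637 probes, 1130 were called in HC445 and 1293 in N2 with the block, against 591 and 636 without it. Without the block, the log2 fold change of his-36 was -0.41 in HC445 (limma adjusted p = 0.201) and -0.58 in N2 (limma adjusted p = 0.0468). The N2 count of histone probes called ranged from 0 to 3 on leaving out single arrays. For his-67 the estimates were -0.71 in HC445 and -0.92 in N2, and for his-41 they were 0.33 in HC445 and 0.58 in N2. Without the N2 array that stood apart, the N2 estimates were -0.46 for his-67, 0.87 for his-41 and -0.40 for his-36, and his-41 was called in N2 (limma adjusted p = 0.00417) in place of his-36 (adjusted p = 0.205). The difference between strains in the effect of the mother's temperature was tested directly, and 0 of 11 histone probes passed, beside 0% of all probes (limma, with 0 of the 11 and 1.22% of all probes at an unadjusted p under 0.05). That difference was 0.20 for his-67 (95% interval -0.70 to 1.11), -0.25 for his-41 (95% interval -0.83 to 0.33) and 0.17 for his-36 (95% interval -0.33 to 0.66). Without that array it was -0.25 for his-67, -0.54 for his-41 and -0.01 for his-36, so the sign for his-67 and his-36 rested on 1 array.

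The second comparison asked whether the grandparents' temperature was followed by a difference after the mothers had been returned to 20 °C. None of the 11 histone probes passed the test, beside 0.284% of all probes (limma, with 0 of the 11 at an unadjusted p under 0.05, and adjusted p from 0.970). The median log2 fold change was -0.15 over the histone probes and -0.01 over all probes. Estimates were below 0 for 9 of 11 histone probes and for 53.0% of all probes.

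The smallest p belonged to the H4 gene his-5. It had 0.47, 0.59 and 0.72 in HC445 embryos with grandparents at 25 °C, against 0.86, 0.73 and 0.82 in HC445 embryos with grandparents at 20 °C. It had 0.32, 0.49 and 0.63 in N2 embryos with grandparents at 25 °C, against 0.81, 0.73 and 0.92 in N2 embryos with grandparents at 20 °C. The 25 °C values lay below the 20 °C values without overlap, a separation found for 0.507% of all probes. Its log2 fold change was -0.28 (95% interval -0.62 to 0.07, limma unadjusted p = 0.108, adjusted p = 0.970), so the difference did not pass the test, in which the 8 groups share 1 estimate of the spread. The N2 array that stood apart is not among the arrays compared here. Leaving it out kept the estimate and gave a limma adjusted p of 0.313, again not a call.

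The other H4 probes had estimates between -0.33 and -0.18 in this comparison. The log2 fold change was -0.33 for his-26 (95% interval -0.76 to 0.09), -0.30 for his-38 (95% interval -0.67 to 0.08), and -0.20 for his-1 (95% interval -0.59 to 0.18). The 25 °C array was the lower one in all 6 same-day pairs for his-5, his-38 and his-26. The share of all probes with such pairs was not counted, and his-5 and his-38 moved together over the arrays (Pearson's r 0.976). With scan day as a replicate block the adjusted p was 0.430 for his-26, 0.499 for his-38 and 0.535 for his-5, so none was called. For his-7 the log2 fold change was -0.15 (95% interval -0.43 to 0.14).

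The probes that had passed with the mother's temperature had small estimates here. The log2 fold change with grandparents at 25 °C was -0.18 for his-67 (95% interval -0.63 to 0.27), 0.10 for his-36 (95% interval -0.15 to 0.35) and -0.09 for his-41 (95% interval -0.38 to 0.20). For his-24 it was 0.10 (95% interval -0.60 to 0.80). By strain, 0 of 11 histone probes were called in HC445, beside 0.0859% of all probes, and 0 of 11 in N2, beside 0.112% (limma, with 0 of the 11 at an unadjusted p under 0.05 in either strain). The strain difference in this effect was called for 0 of 11 histone probes, beside 0% of all probes (limma, with 0 of the 11 and 2.21% of all probes at an unadjusted p under 0.05).

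The effects of mother's and grandparents' temperature were also set against each other. The difference was called for 1 of 11 histone probes, his-36, beside 5.30% of all probes. It was -0.59 for his-36 (SE 0.17, 95% interval -0.95 to -0.24, limma adjusted p = 0.0399). It was 0.55 for his-41 (95% interval 0.14 to 0.96, adjusted p = 0.122) and -0.63 for his-67 (95% interval -1.27 to 0.01, adjusted p = 0.303). Without the N2 array that stood apart, his-36 was not called (-0.50, limma adjusted p = 0.0560) and his-41 was (0.69, adjusted p = 0.0107), while his-67 had -0.41 (adjusted p = 0.448).

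The strains were compared over the samples whose ancestors had all been at 20 °C. None of the 11 histone probes passed, beside 0.112% of all probes (limma, with 0 of the 11 at an unadjusted p under 0.05). The median log2 fold change of HC445 over N2 was -0.15 over the histone probes and -0.00 over all probes. Leaving out the N2 array that stood apart, the middle one of the 11 histone estimates was 0.08, that of his-38. The sign of the histone median thus rested on 1 array. The H4 gene his-67 had the smallest p, with -0.89 ± 0.22 in HC445 and -0.53 ± 0.56 in N2 (SD, n = 6 each), and a log2 fold change of -0.35 (95% interval -0.80 to 0.10). The wider spread in N2 held the array that stood apart, and without it the difference was -0.13.

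The other H4 probes had log2 fold changes of HC445 over N2 of -0.22 for his-1, -0.18 for his-5, -0.18 for his-26 and -0.15 for his-38. Without that N2 array the estimates were -0.09 for his-1, 0.04 for his-5, -0.11 for his-26 and 0.08 for his-38, so the signs of his-5 and his-38 rested on 1 array. For his-24 the log2 fold change was -0.27 (95% interval -0.97 to 0.43), and without that array it was -0.02. The signs of his-7 (-0.08, and 0.09 without that array), his-25 (-0.09 and 0.11) and his-42 (-0.06 and 0.14) turned as well. Both his-36 and his-41 had 0.06, and without that array 0.15 and 0.20.

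Most histone probes also differed between the 3 scan days. With day as a term, 9 of 11 histone probes differed between days at an adjusted p under 0.05 (limma), beside 45.9% of all probes. The H3 gene his-42 was 0.38 higher on the replicate 3 day and 0.69 lower on the replicate 2 day than on the replicate 1 day (adjusted p = 5.51e-08). Its H3 neighbour his-25 differed by 0.37 and -0.67 on the same days (adjusted p = 1.43e-07), and the linker gene his-24 by 0.81 and -0.36 (adjusted p = 6.03e-06). The H4 genes did not share 1 pattern. For his-26 the replicate 2 day was 0.38 above the replicate 1 day and the replicate 3 day was 0.22 below it, that is, a difference of -0.22. For his-67 the replicate 3 day was 0.59 above the replicate 1 day. The exceptions were his-36 and his-41, with adjusted p of 0.125 and 0.737. Collection, amplification and scanning of a replicate cannot be told apart here.

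**Figure D3:**
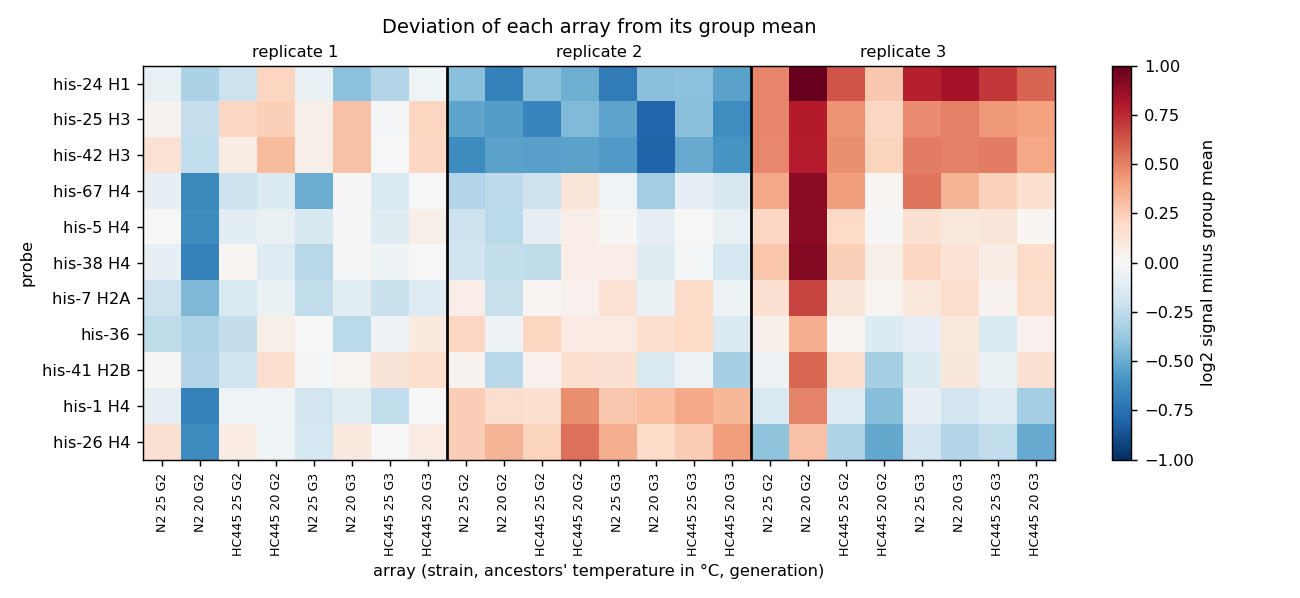
Deviation of each array from its group mean (colour, log2 signal) for 11 histone probes (down) and 24 arrays ordered by replicate, which is also the scan day (across). The H1 and H3 probes are low across replicate 2 and high across replicate 3, his-1 and his-26 are high across replicate 2, and the replicate 3 array of N2 with mothers at 20 °C is high for all 11 probes.

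Histone probes fell into sets that moved together from array to array. Pearson's r is given as a description over 24 arrays, which share scan days and scaling, and in brackets after removing group means. The H3 probes his-25 and his-42 had an r of 0.991 (0.991), and their centred values never differed by more than 0.14. The H4 probes his-5 and his-38, which lie on different chromosomes, had an r of 0.976 (0.965). With his-67 the r was 0.914 (0.927) for his-38 and 0.915 (0.905) for his-5. These are the 4 of 55 pairs with an r above 0.9 after removing group means.

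The other H4 probes formed a second set. The r was 0.897 (0.898) between his-1 and his-26, but 0.348 (0.135) between his-5 and his-26. Between the linker gene his-24 and the H4 gene his-26 it was -0.479 (-0.585). All 5 H4 gene models have a listed gene length of 312 bases, and neither set lay on 1 chromosome.

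**Figure D4:**
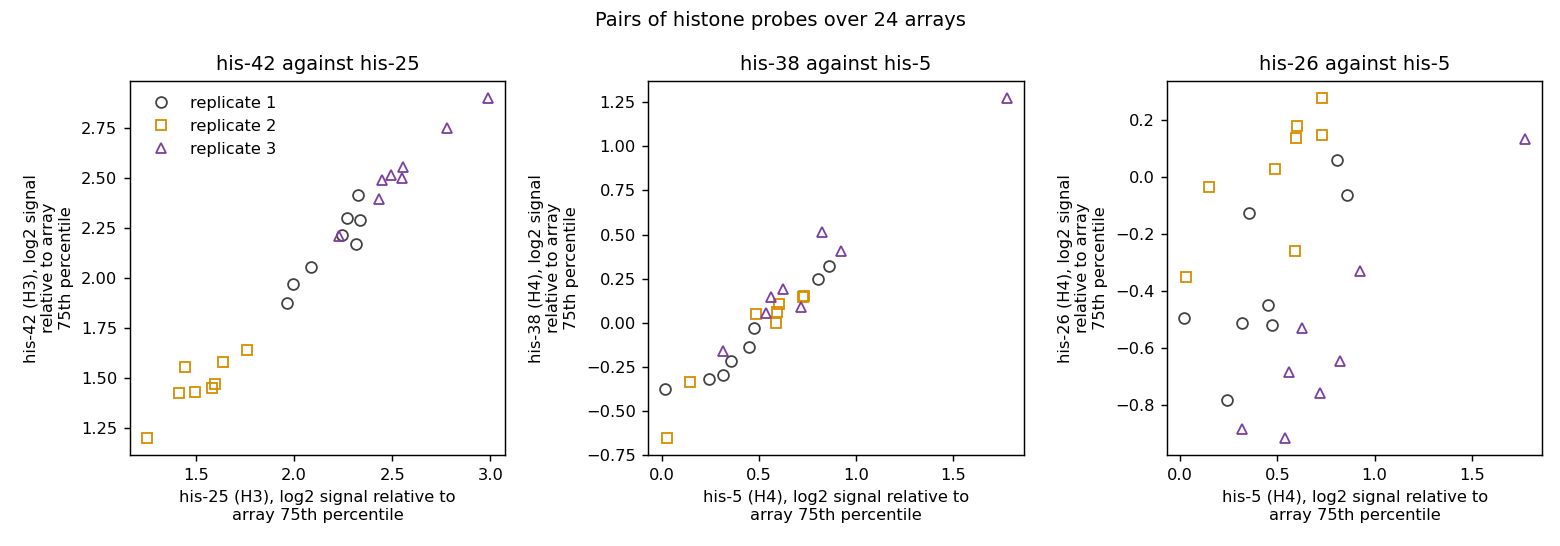
Signal of 3 pairs of histone probes on the 24 arrays, both axes as log2 relative to the array's 75th percentile, with symbols for replicates. The H3 pair his-25 and his-42 and the H4 pair his-5 and his-38 lie along a line, while the H4 pair his-5 and his-26 splits by replicate.

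The H3 variant gene his-70 (WBGene00001944, chromosome III, next to his-69) was mostly not well above background. It was so on 1 of 12 arrays with ancestors at 25 °C and on 2 of 12 arrays with ancestors at 20 °C, and it was not tested. Replacement variants are deposited outside DNA replication, and the related genes his-69, his-71 and his-72 were not analysed here.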

How the data were processed

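RNA of 24 samples was hybridised to 1-colour (Cy3) arrays. Per the file headers, the deposited intensity of each spot, the processed signal, was made with Agilent Feature Extraction 9.5.3.1, after its own background handling, on an array design of build ce2. The deposited series table holds the authors' log2 values, and was used as an alternative. Other deposited columns (flags for background, saturation and uneven spots) are yes or no calls per the file headers. Uneven or outlying spots were set to missing. Processed signals were scaled by the array's 75th percentile and put on a log2 scale. A probe was kept if every array of at least 1 group measured it well above background, and the 11637 such probes were fitted with limma 3.58.1 (R 4.3.3) as 8 group means with trended moderation, and p-values were Benjamini-Hochberg adjusted over all of them (threshold 0.05). The number of arrays limits the precision.

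Every histone probe was counted. The naming rule took those past the threshold, the 5 of smallest p in each pooled comparison, and the linker and variant genes. Beyond the rule, the other tested histone probes were named too with the mother's temperature and with strain, after their values were seen, so that each member is accounted for. The members and lists were chosen with earlier results of these data known. Lists of embryo markers and of other histone-supply genes could not be paired with probe identifiers and were not used here. Symbols follow the order of the identifiers, and the chromosome and neighbours of each symbol came from RefSeq's gene table. The replicate number coincided with scan day, treated as a batch. Alternatives covered normalization, the filter, slide and day blocks, arrays with a spike-in note (5, and 1 suspected) and leaving out each array. The fit was tested on simulated data with independent noise and no slide or scan-day effect, so that test does not cover those effects.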

Additional observations from a re-analysis of the deposited data

Results flagged for a closer look

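The effect of temperature on his-36 differed between the mother's and the grandparents' generation, by the limma test of that difference. The log2 fold change was -0.49 with mothers at 25 °C and 0.10 with grandparents at 25 °C, and the difference was -0.59 (adjusted p = 0.0399). All 6 same-day pairs were lower with mothers at 25 °C, and 2 of 6 were higher with grandparents at 25 °C. No histone probe was called for this difference in 14 of the 24 refits that left out 1 array. A further refit, without replicate 3 of N2 with mothers at 20 °C, lost the his-36 call (-0.50, limma adjusted p = 0.0560). There his-41 was called in place of his-36.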

How the results depend on the processing

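Each result was recomputed under 24 refits without 1 array, 9 other planned settings and 3 settings chosen after seeing the data. Histone probes called with the mother's temperature (3 over both strains, 1 in N2, 0 in HC445) and for the difference between generations (1) changed as follows, and the cause was not tested. With scan day as a replicate block they were 5, 2 and 1 over both strains, in N2 and in HC445, and with the block and quantile normalization, chosen after seeing the data, 5, 3 and 1. Calls over all probes rose with the scan day block too, so a rise was not particular to histone probes. Same-numbered arrays of different groups correlated above 0.1 in 65 of 84 pairs over all probes (median r 0.22) and in 82 of 84 over the 11 histone probes (median r 0.88). Arrays of different groups with different numbers had a median r of -0.12 over all probes and -0.32 over the histone probes. The numbers were not taken as pairing, and the block stands for scan day. The main fit has no day term, so day differences stay in its spread, and whether his-5 and his-38 are called depends on that choice. Slide as a random block gave 3 in N2 and 2 for the generations. Slide as a fixed block, with 3 residual degrees of freedom, gave 0 over both strains and 0 for the generations, with -0.36 for his-67 (adjusted p = 0.517), -0.34 for his-36 (0.359) and 0.99 for his-41 (0.0746), and in N2 the 1 probe called was his-41 in place of his-36. Dropping the 6 arrays that have a spike-in note kept only 1 N2 array with mothers at 25 °C, so only estimates were read. Over both strains these were -1.10 for his-67, -0.38 for his-36 and 0.48 for his-41. The 5 noted arrays all had ancestors at 25 °C, so this setting removed mostly arrays at that temperature. Normexp with quantile normalization gave 1 in HC445, and no filter gave 0 in N2. Of the settings chosen after seeing the data, leaving out the replicate 3 scan day gave 1 in HC445 and 0 for the generations, and leaving out the slide of replicate 3 arrays at 25 °C gave 0 in N2 and 0 for the generations.

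Leaving out each array gave 2 to 4 over both strains, 0 to 3 in N2, 0 to 0 in HC445 and 0 to 1 for the generations. The his-41 call was lost without N2 replicates 1 or 2 of 25 °C mothers, N2 replicates 1 or 2 of 20 °C mothers, HC445 replicates 2 or 3 of 25 °C mothers, or HC445 replicate 3 of 20 °C mothers. Without N2 replicate 1 of 20 °C mothers, his-5 (adjusted p = 0.00628) and his-38 (0.0146) passed. The other comparisons stayed at 0 histone probes in all settings. No called estimate of his-67, his-36 or his-41 changed sign, and 79 of 1080 refits of 30 uncalled estimates did. Over all probes, 634 were higher and 992 lower with mothers at 25 °C, against 936 and 752 after quantile normalization. The count of 1626 became 2666 with the replicate block, 30 with slide as a fixed block and 973 without the replicate 3 day.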
